A study of Mus musculus with 6 samples.

Results

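Bone morphogenetic protein (BMP) signalling in glomerular endothelial cells (GEC) was followed through 10 genes, compared between db/db and normal mice. They were chosen by name for their place in the pathway, with earlier results of these data known. They comprised the ligand genes Bmp2, Bmp4 and Bmp6, the secreted BMP-binding protein Bmper, the receptor genes Bmpr1a, Bmpr2, Acvrl1 and Eng, and Id1 and Smad6 as outputs of the pathway. A gene was taken where a probeset carried its symbol and no other, and each of the 10 had exactly 1 such probeset. They were 10 of the 19938 genes on the array that a probeset of this kind reads. GEC were sorted by fluorescence from the sieved glomeruli of mice aged 7 months. The db/db group carried the genotype Tie2-GFP/ DB/DB (3 samples) and the normal group the genotype Tie2-GFP/ +/+ (3 samples), and no treatment is named for either. The comparison asks how expression in these cells differs in a mouse model of diabetic nephropathy.

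Both groups thus shared the Tie2-GFP transgene, in which the Tie2 promoter drives the fluorescent protein that the sort selects. This promoter is active in endothelium and also in some cells of the blood lineage. The db/db mouse lacks leptin receptor function in every cell, so obesity, diabetes and the loss of leptin signalling come together in it and cannot be told apart in this comparison. The labels call the samples of a group biological replicates, and whether RNA of several animals was pooled is not given in the sources used here. The RNA of each sample was amplified before labelling and hybridised to 1 Affymetrix Mouse Gene 1.0 ST array.

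BMPs are secreted dimers of the TGF-beta superfamily. They bind a complex of type I and type II receptor kinases at the cell surface, the type I kinase phosphorylates the receptor-regulated Smads, and these enter the nucleus with Smad4 and switch on genes such as those of the Id family. In endothelium the pathway is known for its part in vessel growth and vessel stability, and mutations of ACVRL1 and ENG cause hereditary haemorrhagic telangiectasia in humans, while mutations of BMPR2 cause pulmonary arterial hypertension. Proteins outside the cell, Bmper among them, bind the ligands and limit or promote their access to the receptors.

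Values are the log2 signal of a probeset, so that a difference of 1 is a doubling, and each change is db/db minus normal. A probeset was tested if its linear signal reached 100 in at least 3 arrays, which 20661 probesets did. The array medians lay between 7.00 and 7.04, and the correlation between any pair of arrays lay between 0.92 and 0.95. On the leading axis of a principal component analysis (30.5% of the variance) normal replicate 2 lay far from the other 5 arrays. After adjustment over all probesets tested, 0 of the 20661 passed the threshold of 0.05 by limma (0%), and the smallest adjusted p was 0.20. Without adjustment 1320 had a p under 0.05, of which 719 (3.48%) were higher and 601 (2.91%) lower in db/db GEC.

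The labelled cell type was checked against marker genes, none of which passed the adjusted threshold. The adjusted p was at least 0.64, except for the globin probesets, where it was 0.28 to 0.38. All 12 pan-endothelial markers passed the level filter, with a summed linear signal of 57454 to 58853 in db/db and 56056 to 57318 in normal GEC. Emcn, an endothelial sialomucin, averaged 13.63 in db/db and 13.59 in normal GEC. At an unadjusted p under 0.05, 2 of the 12 were higher and 1 lower in db/db GEC, namely Cldn5, a tight junction gene (change 0.98), Cdh5, the gene of VE-cadherin (0.21), and Tek, which encodes Tie2 itself (-0.33). Without overlap 5 of the 12 were higher and 2 lower in db/db GEC, beside 7.01% and 5.31% of all tested probesets. The 5 glomerular endothelial markers, all above the filter, summed to 24836 to 26899 in db/db and 25668 to 28769 in normal GEC. Plat, the gene of tissue plasminogen activator, averaged 13.35 in db/db and 13.27 in normal GEC. The sum overlapped between the groups, but 3 of the 5 genes were lower in db/db GEC without overlap, beside 5.31% of all tested probesets. They were Sema5a (-0.59), Gata5 (-0.28) and Ehd3 (-0.10), of which Sema5a and Gata5 had an unadjusted p under 0.05.

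Markers of other cells also differed in part. Of 9 leukocyte markers 6 lay below the filter, the pan-leukocyte gene Ptprc among them, and the sum was 878 to 1911 in db/db and 1075 to 1128 in normal GEC. Of the 3 tested, Cd68, a macrophage gene, read 7.95, 7.59 and 6.91 in db/db arrays, against 6.63, 6.72 and 6.81 in normal arrays, a change of 0.76 with an unadjusted p under 0.05 and no overlap. The other 2 tested, Cd3e (-0.11) and Tyrobp (-0.06), were lower in db/db GEC with overlapping groups. Lyz2, which the filter left out, had a change of 0.61 with overlapping groups. Also below the filter, Cd79a (-0.33, without overlap) and Ptprc (-0.10) were lower in db/db GEC. Csf1r (0.07), Itgam (0.01) and Adgre1 (0.003) were higher, with overlapping groups. Podocyte markers (6 of 8 measured, 5 tested) summed to 4386 to 4463 in db/db and 4892 to 5863 in normal GEC. Of these Podxl, which endothelium also expresses, had a change of -0.27 and Cdkn1c one of -0.40, both without overlap and with an unadjusted p under 0.05. The other 3 tested were higher in db/db GEC: Synpo (0.24), Wt1 (0.08, without overlap) and Nphs1 (0.06). Podxl alone gave 3508 to 3674 of the podocyte sum in db/db and 4028 to 4864 in normal GEC. Mesangial and mural markers (4 of 9 above the filter, Meis1 with a change of 0.29) gave 1257 to 1408 in db/db and 1134 to 1319 in normal GEC. Proximal tubule markers (5 of 8, Aqp1 with a change of -0.20) gave 1570 to 1827 in db/db and 1831 to 1857 in normal GEC. Aqp1 alone gave 792 to 1106 of this sum in db/db and 1089 to 1133 in normal GEC. The other 4 tested were higher in db/db GEC: Slc22a6 (0.16, without overlap), Slc5a2 (0.10), Pck1 (0.06) and Slc34a1 (0.03). Slc22a6 had a linear signal of 90.9 to 97.6 in normal and 100 to 113 in db/db GEC. It too passed the filter only through the db/db arrays. Distal nephron markers (3 of 6, Aqp2 with a change of 0.16) gave 645 to 776 in db/db and 514 to 626 in normal GEC. Of these Calb1, which the filter left out, had a change of 1.24 and Umod one of 0.31, both without overlap. Umod had a linear signal of 75.4 to 99.0 in normal and 102 to 117 in db/db GEC. It passed the filter only through the db/db arrays. Each marker sum took in all measured genes of its list, also those below the filter. The red cell genes Alas2 and Slc4a1 summed to 270 to 300 in db/db and 284 to 309 in normal GEC, and Alas2 had a change of -0.10. Globin probesets shared by the alpha-globin genes read 8.60 to 9.98 in db/db and 11.29 to 11.74 in normal GEC, and the groups did not overlap. Those shared by the beta-globin genes read 10.79 to 11.38 in db/db and 12.45 to 13.22 in normal GEC, also without overlap. By limma the unadjusted p of these globin probesets was 0.00027 to 0.0014.

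Of the 10 genes 9 were tested, and 0 passed the adjusted threshold. Bmper and Bmp6 had an unadjusted p under 0.05 and both were higher in db/db GEC, beside 3.48% of all tested probesets that were higher at this p. The 3 db/db values lay above the 3 normal values for Bmper, Bmp6 and Eng, beside 7.01% of all tested probesets, and below them for Bmp2 and Acvrl1, beside 5.31%. The other 5 genes had overlapping groups. The median change of the 9 tested genes was 0.03, against 0.01 over all probesets tested. With 3 arrays against 3, an exact permutation test of a single gene cannot give a two-sided p under 0.1. In sorted cells read as a bulk sample, fewer cells that express a gene and less RNA of it per cell cannot be told apart.

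**Figure D1:**
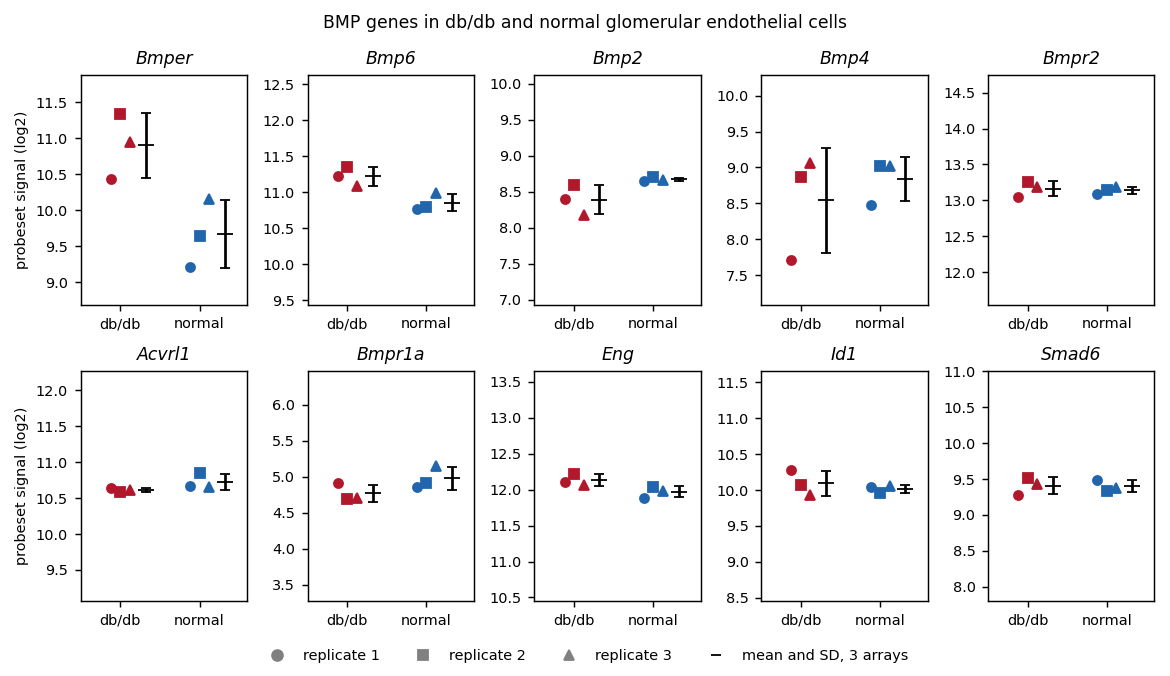
Log2 signal of the 10 BMP pathway genes in each array, 1 panel a gene, with db/db GEC on the left and normal GEC on the right. Points are single arrays, the horizontal line is the group mean and the bar its SD over 3 arrays. Every panel spans the same length of the log2 scale, placed around its own gene. The 3 db/db points lie above the 3 normal points for Bmper, Bmp6 and Eng, and below them for Bmp2 and Acvrl1.

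Bmper showed the largest change of the 10 genes. It encodes a secreted protein with cysteine-rich repeats of the chordin type that binds BMPs and, depending on its amount and setting, holds them back or promotes their signal. Its signal was 10.44, 11.34 and 10.95 in the 3 db/db arrays, against 9.21, 9.64 and 10.16 in the 3 normal arrays. Every db/db array was above every normal array, and the gap between the lowest db/db array (replicate 1) and the highest normal array (replicate 3) was 0.28. On the linear scale this was 1385 to 2586 in db/db and 594 to 1141 in normal GEC. The means were 10.91 ± 0.45 in db/db and 9.67 ± 0.47 in normal GEC (SD, n = 3 each). The change was 1.24 ± 0.32 (SE), a fold of 2.36 with a 95% interval of 1.35 to 4.10. By limma its unadjusted p was 0.0095 and its adjusted p = 0.62, so the change did not pass the threshold. The spread within either group, 0.90 in db/db and 0.94 in normal GEC from the lowest to the highest array, was wide, and of the 10 genes only Bmp4 in db/db GEC (1.35) spread wider. Without normal replicate 2 the Bmper change was 1.22.

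The sequence before the Bmper start is shown because this gene carried the largest change of the 10. The window holds the 250 bases upstream of the RefSeq start in mouse build GRCm38.p6, chr9:23222826-23223075 on the + strand, where capitals mark the short Smad-binding motif GTCT or its complement AGAC.
Bmper: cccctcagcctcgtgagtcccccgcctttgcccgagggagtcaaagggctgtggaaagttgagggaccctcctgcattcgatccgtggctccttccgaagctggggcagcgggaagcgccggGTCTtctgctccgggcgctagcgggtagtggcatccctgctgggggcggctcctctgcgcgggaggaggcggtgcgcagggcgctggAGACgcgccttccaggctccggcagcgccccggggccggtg
The GC-rich BMP-type Smad motif GGCGCC (its own reverse complement) had 0 matches in it, and GTCT, searched on both strands, had 2. Matches of one motif cannot overlap those of the other. Of all 32851 windows of this length in the promoter table, 9.59% held GGCGCC and 82.9% held GTCT. The GC content of the Bmper window was 71.6%, against a median of 52.4% over all windows. A match describes letters only.

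Over the 6 arrays, the genes with the profile most like that of Bmper, each gene being centred on its own mean, were St8sia6 (a sialyltransferase gene), Heatr5b, Prps2 (which makes phosphoribosyl pyrophosphate), Nynrin and Mgst2 (a microsomal glutathione S-transferase). Their root mean square difference from Bmper was 0.24 for St8sia6, 0.25 for Heatr5b, 0.27 for Prps2, 0.28 for Nynrin and 0.28 for Mgst2 on the log2 scale. Their changes were 1.02 for St8sia6, 1.09 for Heatr5b, 0.83 for Prps2, 1.07 for Nynrin and 1.44 for Mgst2. The 5 genes were picked by their values over these same arrays, so changes near that of Bmper follow from the choice. Heatr5b had a linear signal of 56.5 to 75.1 in normal GEC and passed the level filter only through the db/db arrays. Heatr5b had 2 probesets and Nynrin 3, and the closest tested one was taken. The groups overlapped for Prps2 alone among these 5 genes. None passed the adjusted threshold, and a small difference over 6 arrays is a description of these profiles only.

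**Figure D2:**
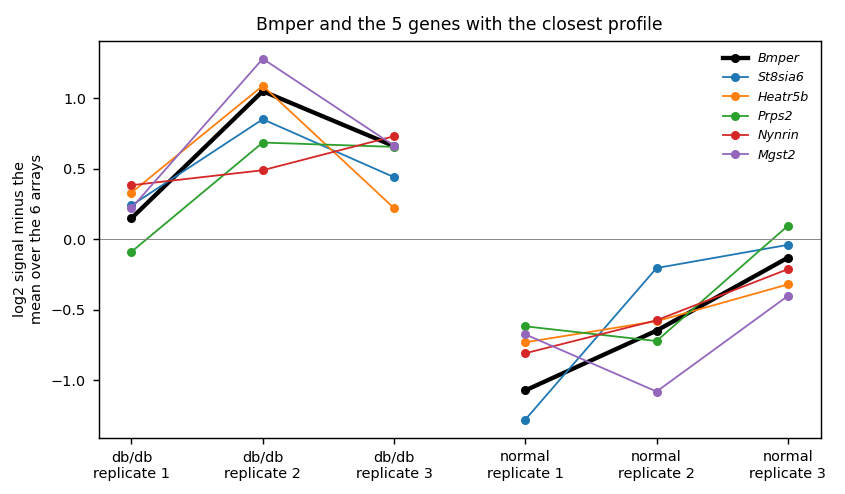
Log2 signal of Bmper and of the 5 genes with the most similar profile, each centred on its own mean over the 6 arrays, with the db/db arrays on the left and the normal arrays on the right. Each line is 1 gene, and the order of replicates within a group has no meaning. Bmper, the heavy black line, is positive in all 3 db/db arrays and negative in all 3 normal arrays.

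Among the ligands, Bmp6 was higher and Bmp2 lower in db/db GEC, each with groups that did not overlap, and neither passed the adjusted threshold. Bmp6 encodes a ligand that liver endothelium supplies to hepatocytes in the control of hepcidin. Its signal was 11.23, 11.35 and 11.09 in db/db arrays, against 10.77, 10.80 and 10.99 in normal arrays. All db/db arrays stood above all normal arrays, with a gap of 0.10. The means were 11.22 ± 0.13 in db/db and 10.85 ± 0.12 in normal GEC (SD, n = 3 each). The change was 0.37 ± 0.11 (SE), a fold of 1.29 with a 95% interval of 1.07 to 1.56, and by limma the unadjusted p was 0.016 and the adjusted p = 0.68. The unadjusted p of Bmp6 was 0.053 without db/db replicate 2 and 0.054 without normal replicate 1. Without normal replicate 2 the Bmp6 change was 0.34.

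The Bmp6 window is shown for comparison with that of Bmper, as the other gene of the 10 with an unadjusted p under 0.05. It covers chr13:38345466-38345715 of GRCm38.p6 on the + strand, with GTCT or AGAC in capitals.
Bmp6: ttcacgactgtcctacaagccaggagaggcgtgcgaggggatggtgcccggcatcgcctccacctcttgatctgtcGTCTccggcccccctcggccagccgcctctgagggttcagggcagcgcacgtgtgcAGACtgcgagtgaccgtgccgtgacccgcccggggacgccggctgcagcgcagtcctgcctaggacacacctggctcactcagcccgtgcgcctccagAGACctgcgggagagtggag
It held 3 matches to GTCT on either strand and 0 to GGCGCC, with a GC content of 68.8%.

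Bmp2 and Bmp4 encode closely related ligands, both used in heart and vessel development. Bmp2 read 8.41, 8.59 and 8.18 in db/db arrays, against 8.65, 8.70 and 8.67 in normal arrays. The db/db values were all lower and more spread, with an SD of 0.21 against 0.03 in normal GEC, and the gap between the groups was 0.06. The change of Bmp2 was -0.28 ± 0.12 (SE), with a 95% interval of -0.58 to 0.02 and adjusted p = 0.79 by limma. Bmp4 read 7.71, 8.87 and 9.06 in db/db arrays, against 8.48, 9.02 and 9.02 in normal arrays. Here the groups overlapped, and db/db replicate 1 was the lowest of the 6 arrays. The change of Bmp4 was -0.29 ± 0.39 (SE), with a 95% interval of -1.26 to 0.67 and adjusted p = 0.93. Without db/db replicate 1 it was 0.12, in the opposite direction, so that the sign of the Bmp4 change rested on this array.

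**Figure D3:**
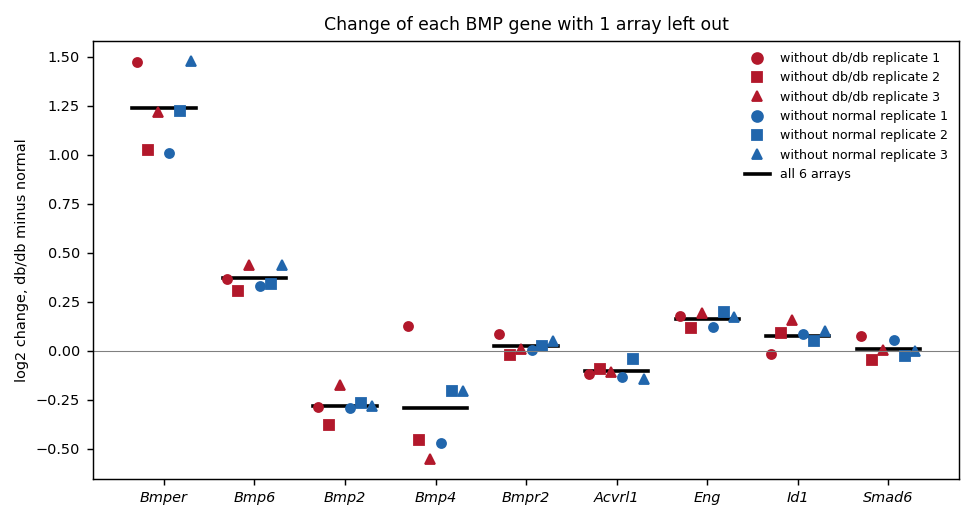
Log2 change (db/db minus normal) of each tested gene with all 6 arrays and with each array left out in turn. Black bars give the change with all arrays, red and blue symbols the change without a db/db or a normal array, and the thin horizontal line marks no change. Bmper stays between 1.01 and 1.48 and Bmp6 between 0.31 and 0.44, while Bmp4 runs from -0.55 to 0.12.

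The receptors differed little between the groups. Bmpr2, the type II receptor of the family, read 13.04, 13.25 and 13.19 in db/db arrays, against 13.09, 13.14 and 13.18 in normal arrays. The ranges overlapped and the change was 0.03 ± 0.09 (SE), with a 95% interval of -0.20 to 0.25 and adjusted p = 0.98. An interval of this width leaves room for a difference of up to 1.19-fold upward or a fold of 0.87 downward. Bmpr1a, the type I receptor that binds Bmp2 and Bmp4, read 4.91, 4.69 and 4.71 in db/db arrays, against 4.86, 4.92 and 5.15 in normal arrays. It lay below the level filter in every array (linear signal 25.8 to 30.0 in db/db and 29.0 to 35.5 in normal GEC), so it was not tested.

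Acvrl1 and Eng encode an endothelial type I receptor and its co-receptor, which bind the circulating ligands made from Gdf2 and Bmp10. Acvrl1 read 10.64, 10.59 and 10.62 in db/db arrays, against 10.67, 10.85 and 10.65 in normal arrays. The groups did not overlap, but the gap between them was 0.0071, and it closed after quantile normalization. The change of Acvrl1 was -0.11 ± 0.09 (SE), with a 95% interval of -0.33 to 0.11 and adjusted p = 0.89. Eng read 12.11, 12.22 and 12.07 in db/db arrays, against 11.89, 12.04 and 11.99 in normal arrays. Its db/db values were all higher, by a gap of 0.03 that closed after quantile normalization and after median centring. The change of Eng was 0.16 ± 0.09 (SE), with a 95% interval of -0.05 to 0.38 and adjusted p = 0.83.

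The outputs of the pathway gave small changes with overlapping groups. Id1 encodes a helix-loop-helix inhibitor of transcription and is a direct target of BMP-activated Smads. It read 10.28, 10.07 and 9.94 in db/db arrays, against 10.04, 9.96 and 10.06 in normal arrays. The groups overlapped, with both the highest and the lowest value in db/db GEC, and the change was 0.08 ± 0.11 (SE), with a 95% interval of -0.20 to 0.35 and adjusted p = 0.94. Smad6 encodes an inhibitory Smad that BMPs induce and that feeds back on their receptors. It read 9.28, 9.52 and 9.43 in db/db arrays, against 9.49, 9.33 and 9.38 in normal arrays. The groups overlapped, and the change was 0.01 ± 0.10 (SE), with a 95% interval of -0.23 to 0.25 and adjusted p = 0.996. Median centring turned the sign of Smad6 to -0.0075.

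The Smad6 window is shown as that of a gene the pathway itself induces. It covers chr9:64022060-64022309 of GRCm38.p6 on the - strand, printed in the direction of transcription, with GTCT or AGAC in capitals.
Smad6: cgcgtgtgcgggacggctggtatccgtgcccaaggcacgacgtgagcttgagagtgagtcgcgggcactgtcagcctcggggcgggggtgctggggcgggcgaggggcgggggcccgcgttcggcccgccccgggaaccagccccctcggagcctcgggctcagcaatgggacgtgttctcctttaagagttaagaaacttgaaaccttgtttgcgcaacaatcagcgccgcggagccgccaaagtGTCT
It held 1 match to GTCT and 0 to GGCGCC, with a GC content of 66.8%. Of the 10 genes, 7 had a window in the promoter table, and GGCGCC was found in those of Bmpr2 and Bmpr1a, with 1 match each.

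The rest of the pathway was read from lists of 65 other genes, of which 64 were measured and 49 tested. Of these 0 passed the adjusted threshold, 3 had an unadjusted p under 0.05 and were higher in db/db GEC, and 0 were lower at that p, beside 3.48% and 2.91% of all tested probesets. The groups did not overlap for 3 genes higher and 4 lower in db/db GEC, beside 7.01% and 5.31% of all tested probesets. The median change of the 49 genes was 0.03, against 0.01 over all tested probesets.

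All 3 genes with an unadjusted p under 0.05 were extracellular modulators, of which 16 were tested, with a median change of 0.08. Mgp, which encodes matrix Gla protein, an inhibitor of calcification that binds BMPs, read 9.37, 9.64 and 9.77 in db/db arrays, against 8.49, 8.99 and 8.15 in normal arrays. The groups did not overlap, and the change was 1.05 ± 0.24 (SE), with an unadjusted p of 0.0049 and adjusted p = 0.56 by limma. Sost, the gene of sclerostin, a secreted protein best known as an inhibitor of Wnt signalling in bone, read 8.67, 8.98 and 8.87 in db/db arrays, against 8.51, 8.45 and 8.33 in normal arrays. Its change was 0.41 ± 0.11 (SE), with adjusted p = 0.63. Fstl1, which encodes a secreted follistatin-like protein, read 9.95, 9.49 and 9.36 in db/db arrays, against 8.94, 8.99 and 9.18 in normal arrays. The Fstl1 change was 0.57 ± 0.18 (SE), with adjusted p = 0.70. For Sost and Fstl1 too, every db/db array was above every normal array. Crim1, a membrane-anchored BMP-binding protein, had a change of -0.01 ± 0.26 (SE) with overlapping groups. Each of these genes came with a single probeset, and the part of mesangial or mural cells in their changes was not tested.

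**Figure D4:**
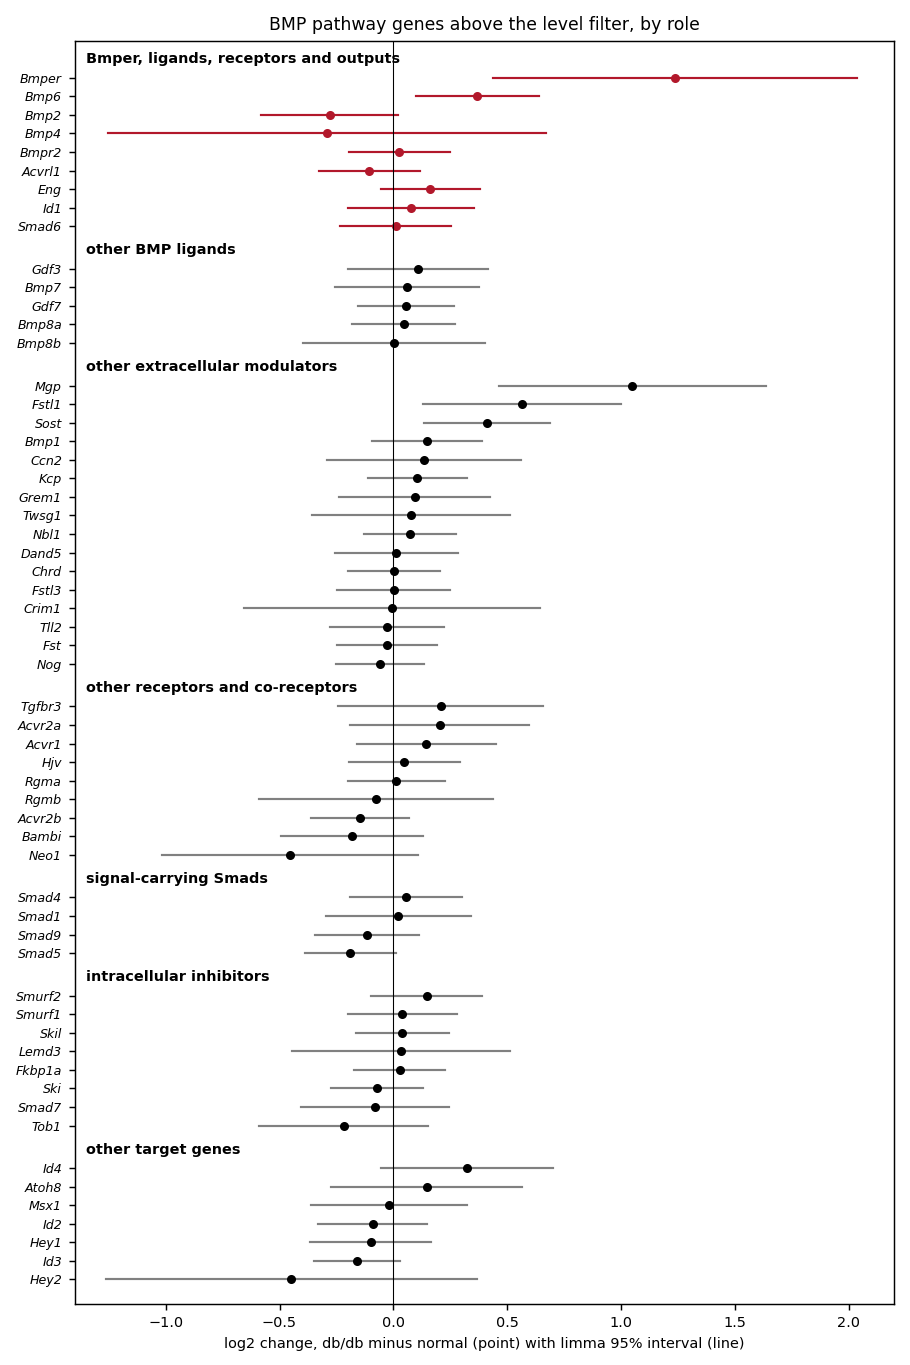
Log2 change (db/db minus normal) with the 95% limma interval for each tested BMP pathway gene, grouped by role. The 9 tested genes of the chosen set are in red and the other 49 in black with grey lines. The intervals of Bmper, Bmp6, Mgp, Sost and Fstl1 lie wholly above 0, and none lies wholly below it.

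The other ligands were low in signal: 6 of 11 lay below the level filter, Gdf2 and Bmp10 among them, and the 5 tested had changes of 0.00 to 0.11 with overlapping groups. Gdf3 had a change of 0.11 ± 0.12, Gdf7 of 0.05 ± 0.09 and Bmp8a of 0.05 ± 0.09 (SE). Of the other receptors and co-receptors 9 of 10 were tested. Neo1, the receptor for repulsive guidance molecules, had a change of -0.45 ± 0.23 (SE) with overlapping groups and adjusted p = 0.82. Acvr2b, a type II receptor of activins and BMPs, had a change of -0.15 ± 0.09 with groups that did not overlap, and its relative Acvr2a had a change of 0.20 ± 0.16 with overlapping groups.

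The Smads that carry the signal gave changes of -0.19 to 0.05. Smad5, a receptor-regulated Smad of the BMP branch, had a change of -0.19 ± 0.08 (SE), with groups that did not overlap and adjusted p = 0.78. Smad9, of the same branch, had a change of -0.12 ± 0.09, with a gap of 0.0068 between the groups, and Smad4, the shared partner, one of 0.05 ± 0.10. All 8 intracellular inhibitors were tested and all had overlapping groups. Smurf2, a ubiquitin ligase, had a change of 0.15 ± 0.10 (SE), Tob1 one of -0.22 ± 0.15, and Fkbp1a, which encodes a protein that guards type I receptors, one of 0.03 ± 0.08. Among 7 tested target genes the relatives of Id1 differed in sign. Id4 had a change of 0.32 ± 0.15 (SE), Id3 one of -0.16 ± 0.08 with groups that did not overlap, and Id2 one of -0.09 ± 0.10. The adjusted p was 0.81 for Id4, 0.81 for Id3 and 0.91 for Id2.

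Across the db/db arrays, replicate 2 held the highest value of Bmper, Bmp2, Bmp6, Bmpr2, Eng and Smad6, and replicate 1 the lowest value of Bmper, Bmp4, Bmpr2 and Smad6. In the normal arrays, replicate 1 held the lowest value of Bmper, Bmp2, Bmp4, Bmp6, Bmpr1a, Bmpr2 and Eng. The leukocyte marker sum was also uneven over the db/db arrays, where Tyrobp, an adaptor of myeloid cells, read 10.04 in replicate 1, 7.45 in replicate 2 and 8.83 in replicate 3, against 8.68 to 9.03 in normal arrays. Cd68 was likewise highest in replicate 1. The part of such cells, of the endothelial markers that differed, and of the globin signal, in the changes of the 10 genes was not tested.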

How the data were processed

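RNA of sorted GEC from 3 db/db and 3 normal samples was hybridised to 1 array each. The deposited table holds log2 signal, 1 column per array, as the authors normalised it. The study's methods name RMA in GeneSpring, while the submitters' processing notes name MAS5. The sorted values of any pair of arrays differ by at most 0.114, so the arrays have nearly the same distribution. A change is therefore measured against the rest of the array, and no further normalization was applied. The number of arrays limits the precision.

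Of 35557 probesets 21789 had 1 gene symbol in the platform annotation, 1621 several and 12147 none. Probesets with a linear signal of 100 or more in at least 3 arrays were tested (20661 probesets, 12763 genes) with limma 3.58.1 in R 4.3.3 (lmFit and eBayes, db/db minus normal, two-sided, Benjamini-Hochberg over all of them, threshold 0.05), after the same code had been tested on simulated data. A gene was read from its probeset with the highest mean. The p-values set a change against the spread between samples of a group, which eBayes draws partly from all probesets tested. Figures were drawn with Python 3.11.15 and matplotlib 3.10.9. Alternatives covered normalization, level filter, variance model, array weights, a replicate block, annotation subset, the methods' t-test and leaving out each array.

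The 10 genes and the lists were chosen with earlier results of these data known. Beside the 10, the text names, of each list, the 2 genes with the smallest p and the 2 with the highest mean, the 5 genes most like Bmper, and of marker lists the most abundant gene. Fstl1 also had a low p. Gdf2, Bmp10, the other marker genes and the globins were named for their role or after their values were seen. Promoter windows are from RefSeq (GRCm38.p6) and matched 7 of the 10 genes by symbol.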

Additional observations from a re-analysis of the deposited data

How the results depend on the processing

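Of 154 changes of the tested genes and Bmpr1a recomputed under alternatives, 146 kept their direction and 8 turned sign. Changing the level filter, variance model, replicate block, annotation subset or test left every change as it was. No sign could turn there, so signs could turn only with another normalization, array weights or an array left out. None of these genes passed the adjusted threshold in the main fit or under any alternative. Bmpr1a was tested only without the level filter. The change of Smad6 was -0.0075 after median centring and -0.015 with array weights. With each array left out in turn it ran from -0.045 to 0.073, that of Bmp4 from -0.55 to 0.12 (0.12 without db/db replicate 1), that of Id1 from -0.016 to 0.16 (-0.016 without db/db replicate 1) and that of Bmpr2 from -0.020 to 0.085 (-0.020 without db/db replicate 2). Bmper kept an unadjusted p under 0.05 in all 17 alternatives, with changes of 1.01 to 1.48 and adjusted p of 0.46 to 0.93. Bmp6 kept one in 14 of 17, with changes of 0.31 to 0.44 and adjusted p of 0.54 to 0.91. Bmp2 had one in 1 of 17, without db/db replicate 2.

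With the replicate block 1 of the 10 genes had an unadjusted p under 0.05 in place of 2 (Bmp6 at 0.055), and when each array was left out the number was 1 to 2. It was 1 without normal replicate 1. The labels do not say whether arrays of the same replicate number were paired. The correlations of their deviations lay between -0.03 and 0.04, which cannot settle this with 3 arrays per group. No probeset passed the adjusted threshold with the block. The methods' t-test without adjustment and with a change over 1.5-fold called 313 probesets and 1 of the 10 genes, Bmper. With 1 probeset per gene 1 gene passed the adjusted threshold, and it was none of the 10. Groups did not overlap for 3 of the 10 genes after quantile normalization, in place of 5. The cause of these shifts was not tested. Averaging the probesets of a gene gave the same values, since each of the 10 genes has 1 probeset. Bmpr1a has only values below the level filter.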
